A study of Rattus norvegicus with 12 samples.

Results

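The macrophage and leukocyte genes are a list of 48 genes that mark macrophages and other white blood cells, chosen by gene symbol from the probe sets that the platform annotation assigns to exactly 1 gene. Of these, 47 were measured, each by 1 probe set, among 14324 genes with a single symbol, and Msr1 was not analysed here. The cells were cultures of neonatal rat heart muscle cells from Sprague-Dawley pups 2 days old, grown for 3 days and then kept for 3 days with di(2-ethylhexyl) phthalate (DEHP), a plasticiser, at 1, 10 or 50 µg/ml. DEHP was dissolved in dimethyl sulphoxide (0.1%), which the vehicle group received without DEHP. Each of the 4 groups had 3 arrays, which the submitters call biological replicates, and all cells came from 1 litter, so every p-value below measures the spread between cultures of that litter.

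The cultures were named for the heart muscle cell, but such preparations can carry other cells of the heart, among them resident macrophages. Macrophages depend on the growth factor receptor Csf1r and the lineage transcription factor Spi1 (PU.1), take up particles through scavenger and Fc receptors, signal through adaptors with an ITAM motif and the kinase Syk, and destroy what they take up with lysosomal enzymes and an oxidase that makes superoxide. In the heart they clear dying cells and debris. The list was read in 10 classes by role, and 6 of the 47 genes (Cyba, Lgals3, Lyn, Tlr4, Gpnmb and Cd14) were set apart because other heart cells are also known to express them, which left 41.

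The deposited value of a gene on an array is a ratio to that probe set's median over the 12 arrays, and values are given here as its log2, called the log2 ratio. A log2 ratio of 0 is the median array. How abundant a transcript was cannot be read from such ratios, so genes are compared by their differences and not by their levels, and whether the cultures contained heart muscle cells or macrophages could not be checked from marker levels. The direction of the ratio (array over median) is not recorded in the sources used here, and if it ran the other way each fall below would be a rise of equal size. A gene is said to have fallen or risen where its log2 difference between groups had an adjusted p under 0.05 in limma, with Benjamini-Hochberg adjustment over all 14324 genes. In cultures of several cell types, fewer macrophages and less RNA of these genes per macrophage cannot be told apart.

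At 50 µg/ml, 39 of the 47 genes fell against vehicle and 0 rose, and 8 did not pass the test. Over all genes tested in this comparison, 8.84% fell and 8.75% rose. The list was chosen with earlier results of these data known, so its counts beside these shares are a description of the list. The log2 difference had a median of -0.67 over the 47 genes and 0.02 over all genes. Among the 39, the differences ran between -2.32 (Lyz2, at 20.1% of its vehicle ratio) and -0.31 (Gpnmb, at 80.9%), with adjusted p between 1.07e-07 and 0.00577 in limma, and 15 of them stood below 50% of vehicle. In 40 of the 47 genes all 3 arrays at 50 µg/ml lay below all 3 vehicle arrays, against 16.5% of all genes. The 8 that did not pass were Cd163, Tlr2, Tlr4, Cd48, Cd52, Cyba, Cd3e and Cd79b, with differences between -0.25 and 0.04.

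**Figure D1:**
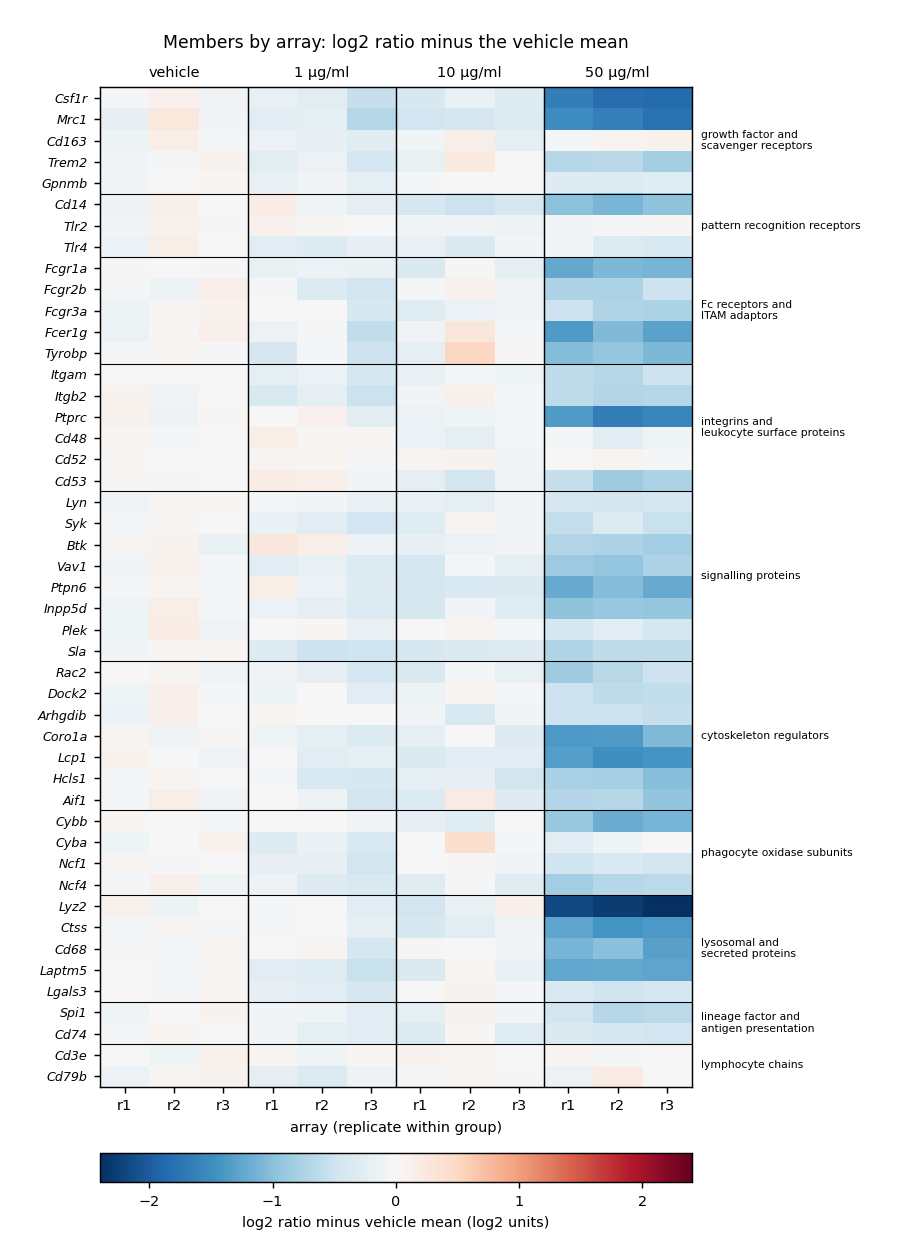
Log2 ratio of each of the 47 measured genes (rows, grouped by class) on each of the 12 arrays (columns), relative to the gene's vehicle mean; blue is lower and red is higher. The 3 arrays at 50 µg/ml are blue in most rows, whereas Cd163, Tlr2, Cd52, Cd3e and Cd79b stay near white there.

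Sequence around the start sites of the genes was read as a description of the list. RefSeq start-site windows (rat build GRCr8, 250 bases before to 50 bases after the start, 300 bases in all) were found for 31 of the 47 genes. Each window was searched on both strands for GAGGAA, the core of sites that PU.1 is known to bind, and for TTGCNNAA, a pattern of C/EBP factors; in no member window did the motifs overlap. The 4 windows shown belong to the members with the largest falls that had one. Letters run 5′ to 3′ on the gene's strand, and capitals mark GAGGAA or its reverse complement TTCCTC. Lyz2 (chr7:54797962-54798261, minus strand), Csf1r (chr18:56834129-56834428, plus strand), Mrc1 (chr17:82157475-82157774, plus strand) and Ptprc (chr13:52259697-52259996, minus strand) read as follows.
Lyz2: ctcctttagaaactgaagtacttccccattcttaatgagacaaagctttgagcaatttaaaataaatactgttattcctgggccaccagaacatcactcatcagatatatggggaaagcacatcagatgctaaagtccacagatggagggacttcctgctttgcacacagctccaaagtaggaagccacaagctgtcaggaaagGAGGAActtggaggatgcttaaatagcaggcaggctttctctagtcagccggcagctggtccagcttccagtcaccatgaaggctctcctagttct
Csf1r: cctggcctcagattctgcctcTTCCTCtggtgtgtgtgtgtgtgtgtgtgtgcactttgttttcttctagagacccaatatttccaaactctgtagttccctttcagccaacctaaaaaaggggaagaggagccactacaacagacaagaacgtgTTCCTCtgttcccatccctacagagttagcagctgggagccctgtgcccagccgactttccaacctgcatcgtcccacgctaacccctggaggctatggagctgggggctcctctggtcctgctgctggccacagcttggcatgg
Mrc1: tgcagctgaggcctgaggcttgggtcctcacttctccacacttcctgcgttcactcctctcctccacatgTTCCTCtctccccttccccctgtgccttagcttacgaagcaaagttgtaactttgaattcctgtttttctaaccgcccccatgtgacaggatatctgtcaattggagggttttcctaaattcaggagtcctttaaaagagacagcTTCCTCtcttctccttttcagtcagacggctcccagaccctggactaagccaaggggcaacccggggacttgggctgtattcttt
Ptprc: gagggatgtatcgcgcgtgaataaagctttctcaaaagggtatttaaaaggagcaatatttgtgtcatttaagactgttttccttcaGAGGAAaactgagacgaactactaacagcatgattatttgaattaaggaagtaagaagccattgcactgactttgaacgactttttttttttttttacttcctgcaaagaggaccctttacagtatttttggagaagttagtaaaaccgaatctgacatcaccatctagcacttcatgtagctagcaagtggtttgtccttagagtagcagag

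The capitals start at position -46 in Lyz2, at -229 and -95 in Csf1r, at -180 and -35 in Mrc1 and at -163 in Ptprc, counted from the annotated start. GAGGAA on either strand was present in 22 of the 31 member windows (71%), against 27.5% of 27457 windows of all genes and 27.5% of the 11806 windows of genes on the array. Among the member windows it was in 20 of 24 genes that fell at 50 µg/ml and in 2 of the 7 that did not pass (Tlr4 and Cd3e). This split was not tested. Coro1a (-1.27) and Ptpn6 (-1.16) were among the genes that fell without a match. TTGCNNAA was in 4 of the 31 (12.9%), against 10.5% of all windows and 10% of array genes. The members were listed as leukocyte genes, with earlier results of these data known, so these shares describe the list and its annotated starts. A match of letters is neither a bound site nor a cause of the change in expression.

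**Figure D2:**
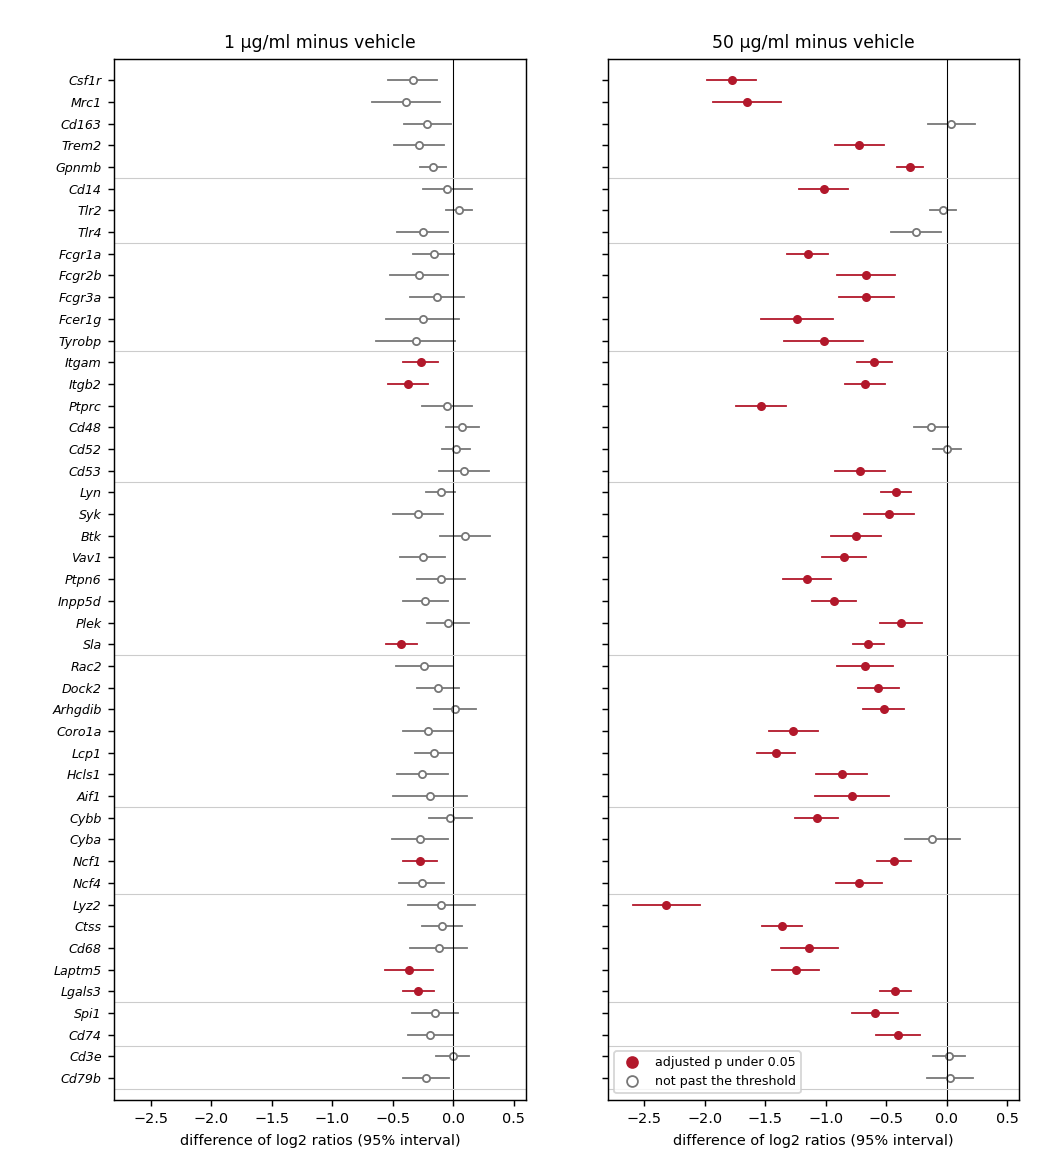
Log2 difference from vehicle, with its 95% interval, for each of the 47 genes (a row per gene, lines between classes) at 1 µg/ml and 50 µg/ml DEHP. Filled points passed the test: 39 genes at 50 µg/ml, reaching -2.32 for Lyz2, and 6 at 1 µg/ml, reaching -0.43 for Sla.

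Of the 5 growth factor and scavenger receptors, 4 fell at 50 µg/ml, with a class median of -0.72. Csf1r, the receptor for CSF1 and IL-34, had log2 ratios of -1.36, -1.53 and -1.55 at 50 µg/ml, against 0.27, 0.40 and 0.22 in vehicle. Its difference was -1.78 ± 0.09 (SE, n = 3 arrays per group; adjusted p = 1.33e-07 in limma). Every array at 50 µg/ml lay below every vehicle array. Mrc1, the mannose receptor CD206, gave -1.16, -1.28 and -1.43 at 50 µg/ml and 0.17, 0.62 and 0.30 in vehicle, a difference of -1.65 ± 0.13 (adjusted p = 2.97e-06). Trem2, a lipid-sensing receptor of macrophages, and Gpnmb, a glycoprotein of phagocytes also made by other cells, fell by 0.72 and 0.31. Cd163, the haemoglobin scavenger receptor, did not pass: it had 0.01, 0.12 and 0.15 at 50 µg/ml and -0.06, 0.21 and 0.01 in vehicle. These arrays overlapped, and the 95% interval of the difference, -0.16 to 0.23, lay far above that of Mrc1, -1.93 to -1.37.

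Of the 3 receptors for microbial patterns, only Cd14 fell at 50 µg/ml. Cd14, the lipopolysaccharide co-receptor, had -0.68, -0.79 and -0.65 at 50 µg/ml, against 0.18, 0.42 and 0.33 in vehicle, a difference of -1.02 ± 0.09 (adjusted p = 1.05e-05). The 2 Toll-like receptors on the list did not pass. Tlr4, which signals lipopolysaccharide with Cd14, had 0.13, -0.14 and -0.19 at 50 µg/ml and 0.04, 0.33 and 0.18 in vehicle, and its difference of -0.25 had an adjusted p of 0.0977. The first of its 3 arrays at 50 µg/ml lay inside the vehicle range, and without that array the difference was -0.35 and passed (adjusted p = 0.0249). Tlr2, the receptor for bacterial lipoproteins, had -0.01, -0.01 and 0.07 at 50 µg/ml and -0.01, 0.14 and 0.01 in vehicle, so that its arrays overlapped.

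Each of the 5 Fc receptors and ITAM adaptors fell, with a class median of -1.02. Fcgr1a, the high-affinity IgG receptor, had -1.07, -0.92 and -0.94 at 50 µg/ml, against 0.20, 0.18 and 0.14 in vehicle (difference -1.15 ± 0.08, adjusted p = 9.72e-07). Fcer1g, the Fc receptor gamma chain that carries the ITAM for it, had -1.25, -0.95 and -1.17 at 50 µg/ml, against -0.03, 0.13 and 0.24 in vehicle. Tyrobp (DAP12), the ITAM adaptor of Trem2, stood at 49.4% of vehicle. All 3 arrays at 50 µg/ml were below every vehicle array for these genes. Fcgr2b, the inhibitory IgG receptor, had the weakest evidence of the class, with -0.63, -0.66 and -0.39 at 50 µg/ml and 0.08, -0.03 and 0.26 in vehicle, and still fell by 0.67. Fcgr3a, a low-affinity activating IgG receptor, was at 63.1% of vehicle.

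Among 6 integrins and surface proteins of leukocytes, 4 fell, with a median of -0.64. Ptprc (CD45), the tyrosine phosphatase on nearly all white blood cells, had -1.26, -1.55 and -1.46 at 50 µg/ml, against 0.19, -0.0031 and 0.14 in vehicle, a difference of -1.53 ± 0.10 (adjusted p = 4.61e-07). The chains of the integrin Mac-1 fell less, to 66% (Itgam) and 62.7% (Itgb2) of vehicle. Itgam had -0.45, -0.52 and -0.34 at 50 µg/ml and 0.17, 0.17 and 0.15 in vehicle. The tetraspanin Cd53 was at 60.9%. Cd48, a receptor of the SLAM family, and Cd52, a small glycoprotein rich on lymphocytes, did not pass. Cd52 had -0.02, 0.05 and -0.05 at 50 µg/ml and 0.02, -0.03 and -0.03 in vehicle, with no separation of the groups.

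All 8 signalling proteins fell, with a median of -0.70. They comprise the kinases Lyn, Syk and Btk, the exchange factor Vav1, the phosphatases Ptpn6 (SHP-1) and Inpp5d (SHIP1), the kinase C substrate Plek and the adaptor Sla. Ptpn6 had -0.89, -0.73 and -0.88 at 50 µg/ml, against 0.28, 0.40 and 0.30 in vehicle, and Sla had -0.36, -0.24 and -0.25 at 50 µg/ml, against 0.30, 0.40 and 0.40 in vehicle. Both differences, -1.16 ± 0.09 and -0.65 ± 0.06, were larger than the spread between arrays in either group (adjusted p = 2.97e-06 and 9.17e-06). The phosphatases, which damp the receptor signal, fell alongside the kinases that carry it: Inpp5d was at 52.4% of vehicle, Vav1 at 55.5%, Btk at 59.5%, Syk at 71.8% and Lyn at 74.8%. Plek had the largest p of the class, with -0.38, -0.23 and -0.37 at 50 µg/ml and -0.05, 0.22 and -0.03 in vehicle, and fell by 0.37 (adjusted p = 0.00577).

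All 7 cytoskeleton regulators fell as well, with a median of -0.78. Lcp1 (L-plastin), an actin bundler of leukocytes, had the lowest adjusted p of all members (1.07e-07), with -1.07, -1.22 and -1.17 at 50 µg/ml, against 0.34, 0.26 and 0.17 in vehicle. Coro1a, an actin regulator, had -1.16, -1.15 and -0.86 at 50 µg/ml, against 0.27, 0.13 and 0.23 in vehicle, or 41.5% of vehicle. Aif1 (Iba1), an actin-binding protein much used to stain macrophages, had the largest p of the class. Its arrays read -0.48, -0.47 and -0.72 at 50 µg/ml and 0.17, 0.36 and 0.14 in vehicle, and it fell by 0.78 (adjusted p = 0.00198). Rac2, which also activates the oxidase, its exchange factor Dock2, Arhgdib and the cortactin relative Hcls1 stood between 54.8% (Hcls1) and 69.7% (Arhgdib) of vehicle.

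Of the 4 subunits of the phagocyte oxidase, 3 fell, with a median of -0.58. Cybb (gp91phox), the catalytic chain, had -0.84, -1.14 and -1.05 at 50 µg/ml, against 0.11, 0.04 and 0.02 in vehicle, a difference of -1.07 ± 0.08 (adjusted p = 2.51e-06). Cyba (p22phox), its membrane partner, which also serves oxidases of other cells, had -0.19, -0.05 and 0.07 at 50 µg/ml and -0.04, 0.06 and 0.17 in vehicle. The Cyba arrays overlapped and its difference did not pass, with an interval of -0.35 to 0.11 that does not reach the interval of Cybb (-1.25 to -0.89). The cytosolic subunits lay between these values: Ncf4 (p40phox) had -0.55, -0.39 and -0.35 at 50 µg/ml, against 0.26, 0.42 and 0.20 in vehicle, and Ncf1 (p47phox) had -0.35, -0.24 and -0.32 at 50 µg/ml, against 0.17, 0.08 and 0.14 in vehicle. They stood at 60.6% and 74% of vehicle.

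All 5 lysosomal and secreted genes fell, with the lowest median of the 10 classes, -1.25. Lyz2, the macrophage lysozyme, had -2.01, -2.13 and -2.36 at 50 µg/ml, against 0.26, 0.03 and 0.16 in vehicle, a difference of -2.32 ± 0.13 (adjusted p = 1.68e-07). The cysteine protease Ctss (cathepsin S) had -1.12, -1.29 and -1.22 at 50 µg/ml, against 0.13, 0.21 and 0.13 in vehicle. Laptm5, a lysosomal membrane protein of blood cells, was at 42.1% of vehicle, and the macrophage sialomucin Cd68 was at 45.5%. Lgals3 (galectin-3), a secreted lectin that other heart cells make too, had -0.25, -0.36 and -0.31 at 50 µg/ml and 0.11, 0.07 and 0.17 in vehicle, and fell by 0.43. Quantile normalization was also applied to the log2 ratios (below, repeated quantile normalization), which gives every array the same distribution of ratios. With it, the differences of Lyz2 (-1.43), Ptprc (-0.98), Ctss (-0.88), Fcer1g (-0.79), Cybb (-0.67) and Cd68 (-0.67) were smaller by more than 1.5 times. Each still passed.

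Spi1 and Cd74 made up the class of lineage factor and antigen presentation, and both fell. Spi1 had -0.36, -0.58 and -0.54 at 50 µg/ml, against 0.0040, 0.12 and 0.19 in vehicle, and Cd74, the class II invariant chain, had -0.10, -0.16 and -0.21 at 50 µg/ml, against 0.19, 0.29 and 0.26 in vehicle. They stood at 66.2% and 75.7% of vehicle. The lymphocyte chains did not pass: Cd3e, of the T cell receptor complex, had 0.03, -0.05 and -0.01 at 50 µg/ml and -0.02, -0.14 and 0.07 in vehicle, and Cd79b, of the B cell receptor, had -0.10, 0.25 and 0.05 at 50 µg/ml and -0.10, 0.10 and 0.13 in vehicle. In both the arrays of the groups overlapped, and whether these chains were detected cannot be read from ratios. By breadth of expression, 35 of the 41 genes not set apart fell (median -0.72). Of the 6 set apart for expression in other heart cells, 4 fell (median -0.36). The difference between these sets was not tested, and other heart cells may express some of the 41 too.

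The fall at 50 µg/ml was also read against the lower doses, which share the 50 µg/ml arrays but not the vehicle. Against 10 µg/ml, 38 of the 47 genes fell and 0 rose (over all genes 6.85% fell and 7.75% rose), with a median difference of -0.52. Against 1 µg/ml, 35 fell and 0 rose (over all genes 13.4% fell and 11.5% rose), with a median of -0.46. Lyz2 differed by -2.15 and by -2.22 in these comparisons. With repeated quantile normalization 30 and 26 genes fell. Over all 14324 genes, 1401 and 2321 then passed in either direction, against 2091 and 3562 in the main fit.

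**Figure D3:**
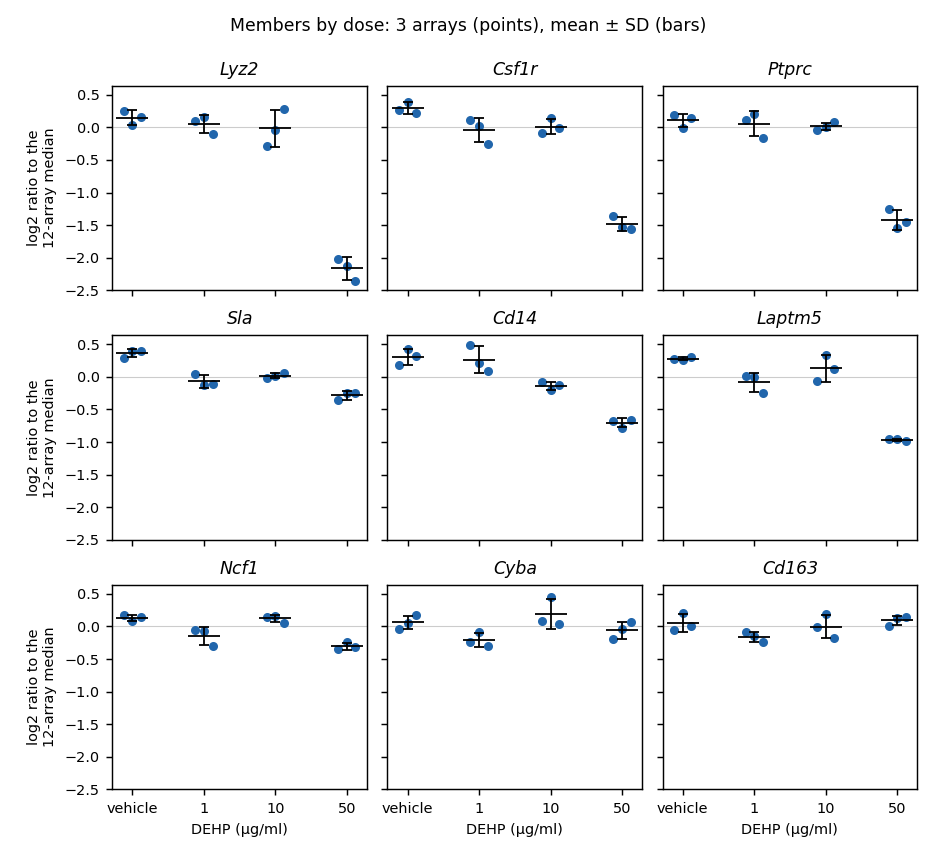
Log2 ratio to the 12-array median (vertical axis) against DEHP dose (vehicle, 1, 10 and 50 µg/ml) for 9 genes; points are the 3 arrays and bars the mean ± SD. Lyz2, Csf1r and Ptprc drop below -1.2 at 50 µg/ml only, Sla is below its vehicle arrays at each dose, and the groups of Cyba and Cd163 overlap between 50 µg/ml and vehicle.

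At 1 µg/ml, 6 of the 47 genes fell against vehicle and 0 rose, where 1.74% of all genes fell and 2.51% rose. The median difference over the 47 genes was -0.19, and 24 of them had an unadjusted p under 0.05, all lower, where 8.78% of all genes were lower at that p. In 20 genes the arrays at 1 µg/ml all lay below the vehicle arrays, against 14.1% of all genes. Sla had 0.05, -0.13 and -0.11 at 1 µg/ml, against 0.30, 0.40 and 0.40 in vehicle, a difference of -0.43 ± 0.06 (adjusted p = 0.00288 in limma). Itgb2 had -0.22, -0.07 and -0.36 at 1 µg/ml, against 0.25, 0.07 and 0.16 in vehicle (-0.37 ± 0.08, adjusted p = 0.0203). In neither gene did the arrays overlap. Laptm5 had 0.01, -0.01 and -0.25 at 1 µg/ml, against 0.27, 0.26 and 0.31 in vehicle, and fell by 0.36. Lgals3 had -0.07, -0.15 and -0.28 at 1 µg/ml, against 0.11, 0.07 and 0.17 in vehicle, and fell by 0.29. For these genes too, every array at 1 µg/ml lay below every vehicle array. Ncf1 had -0.06, -0.07 and -0.30 at 1 µg/ml, against 0.17, 0.08 and 0.14 in vehicle, and Itgam had -0.08, 0.01 and -0.26 at 1 µg/ml, against 0.17, 0.17 and 0.15 in vehicle. Both fell by 0.27, with adjusted p of 0.0382 and 0.0454.

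Only the call of Sla was kept in each of the 19 alternative settings, and the count depended on single arrays. It was 1 (Sla) without replicate 3 at 1 µg/ml, without vehicle replicate 1 or without vehicle replicate 3, 2 without replicate 1 at 1 µg/ml (Sla and Lgals3) or without vehicle replicate 2 (Sla and Itgb2), and 10 without replicate 2 at 10 µg/ml. Of the 47 genes, 43 were below their group mean on replicate 3 at 1 µg/ml, against 6 on replicate 1 and 14 on replicate 2. The median log2 ratio of the 41 genes, taken relative to each gene's vehicle mean, was -0.07, -0.14 and -0.32 on these arrays, against -0.03, 0.04 and -0.02 in vehicle. For Itgb2 the 1 µg/ml and 50 µg/ml differences from vehicle were -0.37 and -0.67, and for Laptm5 -0.36 and -1.25. They share the vehicle arrays.

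At 10 µg/ml, 0 of the 47 genes passed against vehicle in limma, where 0% of all genes did. Of the 47, 16 had an unadjusted p under 0.05, all lower, where 3.57% of all genes were lower at that p, and the median difference over the list was -0.15. The nearest to passing was Sla, with -0.02, 0.02 and 0.05 at 10 µg/ml and 0.30, 0.40 and 0.40 in vehicle (-0.35 ± 0.06, adjusted p = 0.213). Its groups did not overlap. The lowest difference was that of Cd14 (-0.45), with -0.08, -0.20 and -0.12 at 10 µg/ml and 0.18, 0.42 and 0.33 in vehicle. This difference did not pass either (adjusted p = 0.417). With arrays weighted by their spread, in which replicate 1 at 10 µg/ml had a weight of 3.77 and replicate 2 a weight of 0.271, 10 genes passed, all lower: Csf1r, Cd14, Fcgr1a, Vav1, Ptpn6, Inpp5d, Sla, Lcp1, Ctss and Cd74. Over all 14324 genes, 90 passed with these weights, in either direction. On replicate 1 at 10 µg/ml 37 of the 47 genes lay below their group mean, against 14 on replicate 2.

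Set against 1 µg/ml, 10 µg/ml differed for 7 of the 47 genes, where 14% of all genes passed in either direction, 9.2% lower and 4.77% higher. The members' count is near that share, so it is not a result about the list. Higher at 10 µg/ml were Cyba (0.40), Itgb2 (0.38), Lgals3 (0.31) and Ncf1 (0.27). Lower were Cd14 (-0.40), Cd53 (-0.34) and Cd48 (-0.22). Itgb2 had 0.09, 0.28 and 0.13 at 10 µg/ml, against -0.22, -0.07 and -0.36 at 1 µg/ml, and Cyba had 0.08, 0.45 and 0.04 at 10 µg/ml, against -0.24, -0.09 and -0.30 at 1 µg/ml. In both genes the 10 µg/ml arrays all lay above the 1 µg/ml arrays, and replicate 2 was the highest. Without that replicate only Itgb2 and Lgals3 passed, and without replicate 1 at 1 µg/ml 4 genes passed.

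The genes also moved together between arrays of the same group. Over the 820 pairs of the 41 genes, Pearson's r of the deviations from the group means over the 12 arrays had a median of 0.34, and 78.7% of pairs were above 0, against 0.01 and 51.2% for all genes. The pairs share arrays, so this is a description with no test. The median residual SD of a member was 0.122 log2 units, against 0.0822 for all genes.

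Genes of the same pathways that were not on the list were read at 50 µg/ml against vehicle, where 8.84% of all genes fell and 8.75% rose. The pathway lists were drawn up with earlier results of these data known. Of 38 other macrophage genes measured (44 listed), 26 fell and 1 rose, with a median of -0.49. The actin regulator Nckap1l and the prostaglandin D synthase Hpgds fell, to 39.6% and 38.8% of vehicle, and the transcription factor Cebpb rose by 0.41. Of 21 other leukocyte signalling genes (24 listed), 14 fell and 0 rose (median -0.37), and those with the smallest p were the unconventional myosin Myo1f (-0.99) and the integrin activator Fermt3 (-0.91). Of 8 genes for Csf1r ligands and related factors (9 listed), 3 rose and 1 fell: the Csf1r ligands Csf1 (0.27) and Il34 (0.39) and the monocyte chemokine Ccl2 (0.62) rose, and the Ccl2 receptor Ccr2 fell by 0.29. Ccl2 differed from vehicle by -0.57 at 1 µg/ml and fell there (adjusted p = 0.00114 in limma).

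Further related lists gave other counts in this comparison, beside the same 8.84% of all genes that fell and 8.75% that rose. Of 22 general lysosomal genes (25 listed), 3 fell and 6 rose, with a median of 0.08: the sterol carrier Npc2 rose by 0.38 and the protease Ctsh by 0.23, and the protease Ctsb and the lipase Lipa fell by 0.21 and 0.32. The 6 other oxidase genes (9 listed) had 0 falls and 2 rises, Nox4 (0.58) and Duox1 (0.28), which encode other superoxide- or peroxide-forming oxidases. Of 7 other Toll-like receptor genes (12 listed), the endosomal RNA receptor Tlr7 fell by 0.84 and the lipopolysaccharide carrier Lbp rose by 0.85. Of 7 class II genes, the peptide loaders RT1-DMb and RT1-DMa fell by 1.33 and 0.68.

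**Figure D4:**
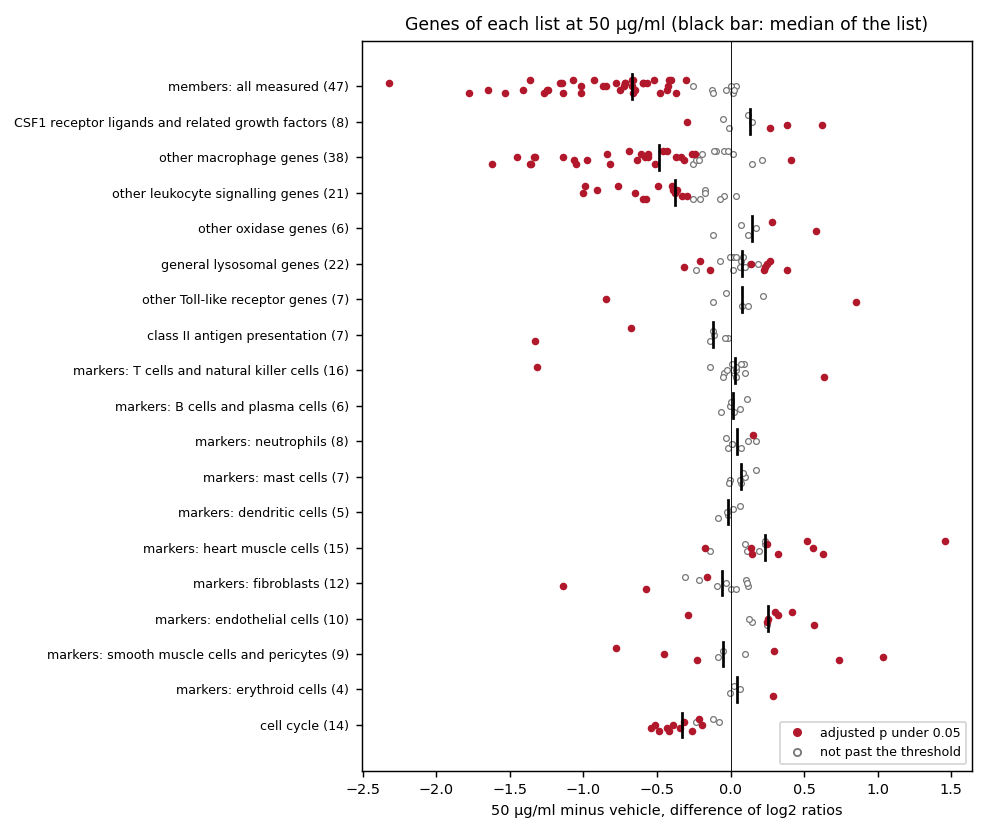
Log2 difference of 50 µg/ml DEHP from vehicle for every measured gene (points) of the 47-gene list, the related pathway lists and the marker lists of other cell types, with each list's median (bar). The 47 genes have a median of -0.67, other macrophage genes -0.49, heart muscle markers 0.23 and fibroblast markers -0.06.

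Markers of other blood cells mostly did not pass at 50 µg/ml, where 8.84% of all genes fell and 8.75% rose. Among B cell and plasma cell (6 genes), mast cell (7 genes) and dendritic cell (5 genes) markers 0 passed, with the smallest p of each list at Fcer2 (0.11), Kit (0.17) and Flt3 (-0.09). Ratios do not show whether these transcripts were detected, so the presence of these cells could not be read. The marker genes that passed are named here after their values were seen. Of 8 neutrophil markers Camp rose by 0.16. Of 16 T cell and natural killer cell markers Cd4, which rat macrophages also carry, fell by 1.31 and Il7r rose by 0.63.

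Markers of other heart cells moved in both directions at the same dose, as did all genes (8.84% fell and 8.75% rose). Of 15 heart muscle markers 8 rose and 1, Nppa, fell (median 0.23). Of 10 endothelial markers 6 rose and 1, Flt1, fell (median 0.25). Of 12 fibroblast markers Mfap5, Thy1 and Fn1 fell and 0 rose (median -0.06). Of 9 smooth muscle and pericyte markers Abcc9, Kcnj8 and Pdgfrb rose and Rgs5, Cnn1 and Tagln fell, and of 4 erythroid markers Hbb rose. Of 14 cell cycle genes 11 fell (median -0.33). At 1 µg/ml the endothelial markers Tie1, Sox18 and Cdh5 fell, where 1.74% of all genes did. The endothelial list had a median of -0.25 there, beside the median of -0.19 for the macrophage and leukocyte genes. The part of these cell types in the differences of the macrophage and leukocyte genes was not tested.

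**Figure D5:**
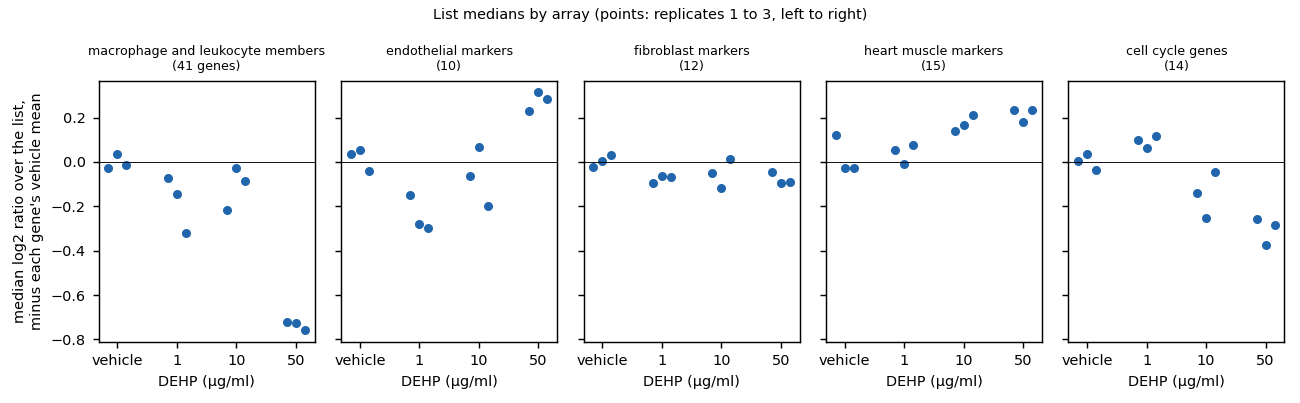
Median log2 ratio, relative to each gene's vehicle mean (vertical axis), on each array (points) by DEHP dose (vehicle, 1, 10 and 50 µg/ml). Shown are the 41 macrophage and leukocyte genes not set apart for expression in other heart cells, and marker lists of other cells. The 41 genes read -0.72, -0.73 and -0.76 at 50 µg/ml and the endothelial markers 0.23, 0.31 and 0.28, and at 1 µg/ml the 41 genes read -0.07, -0.14 and -0.32 and the endothelial markers -0.15, -0.28 and -0.30.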

How the data were processed

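Expression was measured with Affymetrix arrays, 1 per sample, in 12 samples, from 5 µg of total RNA each. The processing was by RMA, per the submitters' processing notes; the RMA version is not given there. Each deposited value is a linear ratio (0.165 to 12.2). Sorted within a probe set, values 6 and 7 of 12 had a log mean of 0 to within 1e-06 in all 27342 probe sets, so the authors' ratios are relative to the probe set's median. Array medians lay between 0.994 and 1.01. Background, detection and slide were not analysed here, and the number of arrays limits the precision.

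Exactly 1 symbol was given for 15097 probe sets, several for 323 and none for 11922; 15067 were matched by gene ID to the GRCr8 gene table, with 0 symbols changed. Probe sets of a gene were averaged on the log2 scale (499 genes had several), giving 14324 genes. The design had foreseen log2 values, so the deposited ratios were first put on the log2 scale. All 12 arrays were fitted together with limma 3.58.1 (lmFit and eBayes, R 4.3.3; 8 residual and 4.50 prior degrees of freedom). The p-values are two-sided and adjusted by Benjamini-Hochberg over all genes, with a threshold of 0.05, for 6 comparisons. An exact permutation test of 3 against 3 arrays cannot go below p = 0.1. The fit was tested on simulated data with independent normal noise for each gene. Such data lack the shared deviations of the members and the unequal spread of the arrays, so that test does not cover them.

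Per-array values are given for the 2 members with the smallest and the 1 with the largest unadjusted p of each class at 50 µg/ml, and for members that passed at 1 or 10 µg/ml; 2 members of each pathway list are named per direction, or the 1 with the smallest p. Further members, and those differing between 10 and 1 µg/ml, were given beside them. Members, classes, pathway lists and marker lists were chosen with earlier results of these data known. Replicates of a group differed by an SD of 0.104 to 0.197 log2 units, with at most 15 identical probe sets. No array was therefore a copy of another in its group, and arrays of different groups were not compared in this way. The alternatives were repeated quantile normalization (of the log2 ratios), median centring, robust moderation, array weights and a replicate block. The others were a fit of only the compared groups, probe sets in place of genes, and leaving out each array.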

Additional observations from a re-analysis of the deposited data

How the results depend on the processing

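All 39 calls at 50 µg/ml against vehicle were kept in each of the 19 alternatives, and leaving out single arrays gave 39 to 40. At 1 µg/ml against vehicle 6 genes passed, and 12 with only the 2 compared groups, 13 with array weights, 15 with repeated quantile normalization and 1 to 10 with an array left out. At 10 µg/ml against vehicle 0 passed, and 10 with array weights, 1 (Sla) with repeated quantile normalization and 0 with any array left out. Between 10 and 1 µg/ml 7 passed, and 11 with array weights, 2 with only the compared groups and 2 to 8 with an array left out. For 50 against 10 µg/ml the range with an array left out was 37 to 38, and for 50 against 1 µg/ml 31 to 38. No gene that passed in the comparisons of 50 µg/ml, or of 1 µg/ml with vehicle, changed sign in any alternative; 5 of the 8 that did not pass at 50 µg/ml against vehicle did. The cause of these shifts was not tested. Over all genes, calls at 1 µg/ml against vehicle numbered 608, against 1661 with only the compared groups, 1772 with array weights and 1139 with repeated quantile normalization. At 10 µg/ml against vehicle they numbered 0, against 90 with array weights and 15 with repeated quantile normalization.

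Replicate numbers are shared by the groups. Deviations of the 18 same-numbered pairs correlated at r = -0.23 to 0.43, 6 of them above 0.1, and 3 of 12 arrays correlated best with their own number. With 3 arrays per group these values do not settle whether the numbers pair the arrays. With the replicate block 39 genes passed at 50 µg/ml against vehicle, 0 at 10, 6 at 1 (Csf1r in place of Itgam), 38 for 50 against 10, 37 for 50 against 1 and 9 for 10 against 1 µg/ml.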

Other observations

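The genes outside the list whose 12 values were most like the median of the 41 macrophage and leukocyte genes were ranked by Pearson's r among 14277 genes. The nearest 10 were Myo1f (0.99), Tbxas1, Plau, C1qa, Nckap1l, Mfap5, RT1-DMb, Clec4a1, Folr2 and Cyth4 (0.98), and 48 genes had r above 0.95. Tbxas1 is the thromboxane synthase, Plau the urokinase plasminogen activator and Folr2 a folate receptor known on resident macrophages. Mfap5, a microfibril protein, stood on the fibroblast marker list. The arrays at 50 µg/ml lie apart from the others, and over the 9 remaining arrays r of these genes was between 0.79 and 0.91. For deviations from the group means over 12 arrays r was between 0.54 (Mfap5) and 0.93 (Clec4a1). All genes share the same arrays, and these genes were picked for their likeness, so these values are a description. Plau had log2 ratios of -0.81, -0.96 and -1.08 at 50 µg/ml, against 0.38, 0.40 and 0.19 in vehicle, and Clec4a1, a C-type lectin of myeloid cells, had -1.30, -1.22 and -1.48 at 50 µg/ml, against 0.02, 0.26 and 0.08 in vehicle.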
